A study of Mus musculus with 30 samples.

Results

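The genes described here are 39 targets and regulators of p53 and genes of cellular senescence, taken by symbol from a fixed list, out of 20764 genes listed for mouse hearts and 54532 listed for HL-1 cells. They were grouped by role into p53 with its regulators (Trp53, Mdm2, Mdm4), damage kinases (Atm, Atr), inhibitors of cyclin-dependent kinases (Cdkn1a, Cdkn1b, Cdkn2a, Cdkn2b, Cdkn2c), 11 cell cycle and stress targets, 13 cell death genes and 5 genes of DNA repair and nucleotide supply. RNA was sequenced from the hearts of 18 female C57BL6 mice (a mix of the J and N substrains), with 3 mice in each of 6 groups: young mice at 2 months of age, old mice at 12 months on water (old H2O), and old mice at 12 months given nicotinamide riboside (NR, a precursor of NAD+) at 3 g per l of drinking water from 2 months of age (old NR), each taken at zeitgeber time 10 (ZT10, late in the light phase) and ZT22 (late in the dark phase). RNA was also sequenced from 12 cultures of HL-1, a cell line derived from a mouse atrial tumour, with 3 cultures each left untreated or given FK866 (an inhibitor of the NAD+ salvage enzyme NAMPT), FK866 plus NR, or FK866 plus NR plus Ex527 (an inhibitor of the deacetylase SIRT1). All heart groups share sex, strain, housing and chow. By their label the HL-1 cultures come from a single line, whose tumour was driven by a viral T antigen, a protein that binds p53. T antigen was not measured here, and the cell type markers given below go against the label.

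p53 is a transcription factor that is kept low by the ubiquitin ligase MDM2 and its partner MDM4 and is stabilized when the kinases ATM and ATR sense DNA damage. Its targets halt the cell cycle (Cdkn1a, which encodes p21), act in stress signalling (sestrins, Gadd45 genes), repair DNA or start apoptosis (Bax, Bbc3, Fas). Many of them, Cdkn1a and the Gadd45 genes among them, are also induced without p53 by clock, hormone and stress factors, and the locus of Cdkn2a, which encodes p16INK4a and p19ARF from overlapping transcripts, is the most used marker of senescent cells.

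The sequences upstream of 5 members that the results turn on are printed here because these members moved with time of day, age or NAD+ depletion, and their promoters hold letters read by p53, by the clock or by stress factors. RefSeq windows were found for 31 of the 39 members (40 windows of 250 bases upstream of a transcription start, build GRCm38.p6). Capitals mark matches on either strand to the decamer that p53 binds in pairs, the E-box CACGTG, the D-box TTATGNAA, the FOXO site TGTTTAC, the CRE TGACGTCA, the AP-1 site TGANTCA or the ATF4 site TGATGCAA. The p53 decamer was searched as RRRCWWGYYY, where R is A or G, W is A or T and Y is C or T.
Cdkn1a, upstream of its first start, chr17:29090729-29090978, plus strand, 2 p53 decamers: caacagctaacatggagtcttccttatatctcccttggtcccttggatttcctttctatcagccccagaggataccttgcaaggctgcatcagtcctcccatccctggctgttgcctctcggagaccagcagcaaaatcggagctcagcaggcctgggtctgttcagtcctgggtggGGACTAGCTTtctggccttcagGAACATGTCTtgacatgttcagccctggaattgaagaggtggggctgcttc
Gadd45a, chr6:67037408-67037657, minus strand, a D-box and a p53 decamer: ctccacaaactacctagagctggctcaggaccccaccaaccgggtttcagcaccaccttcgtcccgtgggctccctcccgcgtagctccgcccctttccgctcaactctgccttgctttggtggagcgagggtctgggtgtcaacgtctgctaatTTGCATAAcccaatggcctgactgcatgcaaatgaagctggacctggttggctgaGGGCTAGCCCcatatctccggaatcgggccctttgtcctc
Gadd45b, chr10:80929841-80930090, plus strand, an E-box: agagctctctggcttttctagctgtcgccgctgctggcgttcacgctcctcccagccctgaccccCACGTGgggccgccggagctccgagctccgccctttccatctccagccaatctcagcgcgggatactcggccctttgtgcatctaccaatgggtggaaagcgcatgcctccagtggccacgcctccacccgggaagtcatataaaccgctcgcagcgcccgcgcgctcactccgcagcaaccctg
Mdm4, upstream of its inner start, chr1:133025417-133025666, minus strand, a D-box and an AP-1 site: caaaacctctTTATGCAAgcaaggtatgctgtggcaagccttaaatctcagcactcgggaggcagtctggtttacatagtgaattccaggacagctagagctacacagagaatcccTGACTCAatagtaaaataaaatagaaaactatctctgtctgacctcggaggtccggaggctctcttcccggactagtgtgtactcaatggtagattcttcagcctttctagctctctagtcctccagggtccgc
Sesn1, upstream of its inner start, chr10:41887189-41887438, plus strand, a p53 decamer: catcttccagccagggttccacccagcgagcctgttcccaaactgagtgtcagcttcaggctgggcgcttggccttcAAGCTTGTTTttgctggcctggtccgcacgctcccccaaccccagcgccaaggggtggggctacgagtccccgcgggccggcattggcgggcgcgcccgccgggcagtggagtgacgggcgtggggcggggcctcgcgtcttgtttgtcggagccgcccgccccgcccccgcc
A p53 decamer was found in 10 of the 40 member windows, against 7.13% of all 32851 windows, for genes that were listed because many are p53 targets. The E-box was found in 6 member windows (6.02% of all), those of Gadd45b, Gadd45g, Bax, Bbc3, Fas and Aen. The D-box was found in 3 (3.07% of all), those of Mdm4, Gadd45a and Eda2r, and the CRE in 3 (1.55% of all), those of Cdkn2b, Btg2 and Plk2. The FOXO site was found in 3 (3.17% of all), the AP-1 site in 2 (6.75% of all) and the ATF4 site in 1 (0.791% of all), that of Gadd45g. No window of Atm, Atr, Cdkn1b, Cdkn2a, Cdkn2c, Ccng2, Plk3, Pidd1, Apaf1, Phlda3, Dram1 or Ercc5 held any of these letters. Of the matches, 0 overlapped with a match to a different motif, and a match is a description of letters only.

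Before the results, the labels were checked against markers, as summed levels in CPM per kilobase of gene length. The hearts held cardiomyocyte markers (6 of 6 genes, 882 to 1430) and ventricular markers (257 to 443), while atrial markers ranged from 100 to 431, with old H2O hearts at ZT10 highest (297 to 431). Young ZT22 replicate 2 stood apart in 12 immediate early genes (308, other hearts 153 to 246) and in Atf3, a stress-induced transcription factor (48.2, other hearts 2.93 to 19.1), so results of members that rest on it are given with and without it. The other gene lists were not refitted without it. The HL-1 libraries went against their cardiomyocyte label: cardiomyocyte markers summed to 0.0775 to 0.307, both ventricular markers were at 0 in 11 of the 12 libraries, and atrial markers reached at most 1.73, whereas fibroblast markers summed to 293 to 466 and proliferation markers to 200 to 249. They are called HL-1 cells here by their label only. Library totals were 3922137 to 7562215 counts in hearts and 21337922 to 35000109 in HL-1 cells, so a given relative change is measured more finely in the cells. In heart tissue, fewer cells of a type and less RNA per cell cannot be told apart.

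The members differed widely in level. Levels are given as CPM, a count scaled to the total of its library, per kilobase of gene length. Per length, Ccng1, which encodes cyclin G1, was the most abundant in hearts (median 173 CPM per kilobase, 128 to 209 over 18 hearts), followed by Perp, a membrane protein of p53-driven death (93.2), and Sesn1, a stress-induced inhibitor of mTORC1 (53.5). Cdkn2a had the lowest level in hearts (median 0.346, 0 to 1.19), next to Pmaip1, Pidd1 and Cdkn2b at medians of 0.382, 0.723 and 0.991. In HL-1 cells Cdkn2a had the highest level of all members (median 218, 143 to 341 over 12 cultures), ahead of Ccng1 (58.1), Cdkn2c (41.0) and Trp53 itself (35.2, against 9.09 in hearts). Hearts and HL-1 cells were sequenced and normalized separately, so these levels are set side by side without a test.

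**Figure D1:**
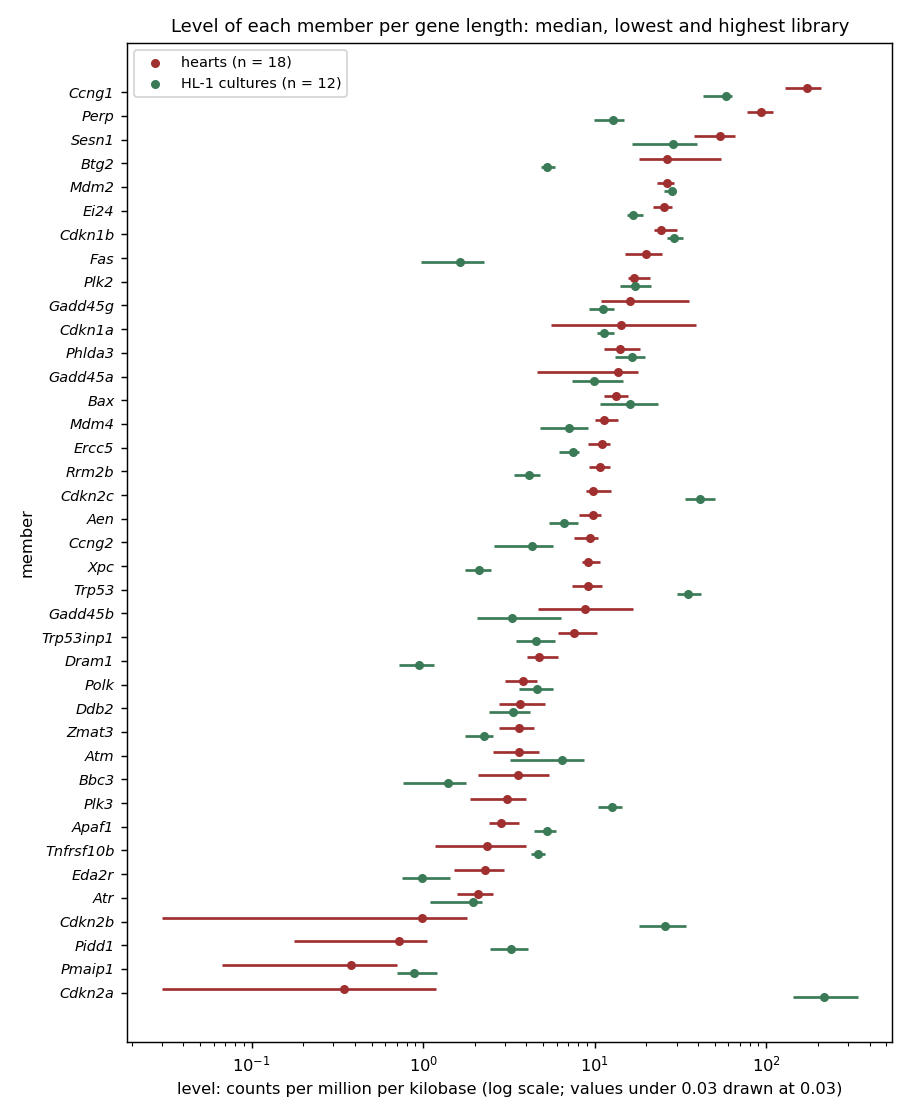
Level of each of the 39 members per gene length (CPM per kilobase, log axis) in the 18 hearts and the 12 HL-1 cultures; points are medians and lines run from the lowest to the highest library. Cdkn2a lies at a median of 0.346 in hearts and 218 in HL-1 cells, and Fas at 19.8 in hearts and 1.63 in HL-1 cells.

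The spread over hearts also differed between members. Normalized counts of Mdm2, Xpc and Ei24 varied by at most 1.28-fold between the lowest and the highest of the 18 hearts. Those of Pmaip1 and Pidd1, which encode the death proteins NOXA and PIDD, varied 10.4-fold and 5.95-fold on few reads (lowest hearts 0.989 and 4.42). Among members with more reads, those of Cdkn1a varied 6.93-fold, of Gadd45a 3.87-fold, of Gadd45b 3.60-fold, of Tnfrsf10b 3.41-fold, of Gadd45g 3.25-fold and of Btg2 3.00-fold. In HL-1 cells Gadd45b varied most (3.08-fold), then Atm (2.71-fold), Sesn1 (2.40-fold) and Cdkn2a (2.38-fold), while Cdkn1a varied 1.27-fold.

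To ask how the members changed between day and night, ZT10 was compared with ZT22 in each group of mice. Counts were tested with edgeR over 15443 genes, 38 of the 39 members passed the minimum average count of 5 (Cdkn2a did not), and calls needed an adjusted p under 0.05. In young hearts 8 members were called, 4 higher and 4 lower at ZT10, against 14.4% of all genes tested. Cdkn1a was 5.4-fold lower at ZT10, Gadd45b 2.71-fold and Gadd45a 2.1-fold higher. The median log2 fold change over the 38 members was -0.01, against 0.01 over all genes.

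Cdkn1a, which encodes the cell cycle inhibitor p21 (chromosome 17, 29090976 to 29100727, GRCm38), had normalized counts of 110, 126 and 135 in young hearts at ZT10 and of 477, 748 and 762 at ZT22. The groups did not overlap, and the lowest heart at ZT22 lay far above the highest at ZT10 (log2 fold change -2.43, SE 0.22, adjusted p = 1.44e-07). In old H2O hearts Cdkn1a stood at 283, 221 and 268 at ZT10 and at 276, 430 and 482 at ZT22. Here the lowest ZT22 heart lay within the ZT10 range, and the difference was not called (-0.67, SE 0.21, adjusted p = 0.0721). The same difference was called in a fit of only these 6 hearts (adjusted p = 0.0354) and without old H2O ZT22 replicate 1 (-0.85, adjusted p = 0.0147), and not with DESeq2 (0.252), so whether Cdkn1a differed between the times in old H2O hearts rests on the fit. In old NR hearts the values were 113, 242 and 186 at ZT10 and 438, 434 and 347 at ZT22, which did not overlap (-1.15, SE 0.21, adjusted p = 0.00174). The calls in young and old NR hearts held without any single heart (adjusted p at most 4.86e-06 and 0.013).

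Gadd45a and Gadd45b encode small stress proteins that bind p38 and JNK pathway kinases, PCNA and p21. Gadd45a (chromosome 6, 67035096 to 67037457) had 174, 138 and 167 normalized counts in young hearts at ZT10 and 96.9, 45.0 and 91.2 at ZT22, with no overlap and with replicate 2 lowest (1.07, SE 0.18, adjusted p = 0.000244). Without that heart the difference was 0.76 (adjusted p = 0.000768). In old H2O hearts it had 120.1, 116 and 100.3 at ZT10 and 130, 106 and 132 at ZT22, which overlapped (-0.13, SE 0.17, adjusted p = 0.739). In old NR hearts the values lay between 133 and 147 at ZT10 and between 137 and 155 at ZT22 (-0.05, SE 0.16, adjusted p = 0.934).

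Gadd45b (chromosome 10, 80930073 to 80932204) had 107, 147 and 99.7 normalized counts in young hearts at ZT10 and 49.7, 41.4 and 41.0 at ZT22, without overlap (1.44, SE 0.19, adjusted p = 1.29e-05). In old H2O hearts the values were 84.7, 91.2 and 74.1 at ZT10 and 45.7, 67.8 and 60.2 at ZT22, also without overlap but not called (0.50, SE 0.18, adjusted p = 0.138). In old NR hearts they were 106, 130 and 121 at ZT10 and 80.3, 58.7 and 52.1 at ZT22, again without overlap (0.94, SE 0.17, adjusted p = 0.00132). The order of the groups was thus the same in all mice, with every ZT10 heart above every ZT22 heart of its own group. Beside these values, glucocorticoid target genes had summed levels of 223 to 278 at ZT10 and of 154 to 195 at ZT22 over all hearts, and their part in the result was not tested.

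**Figure D2:**
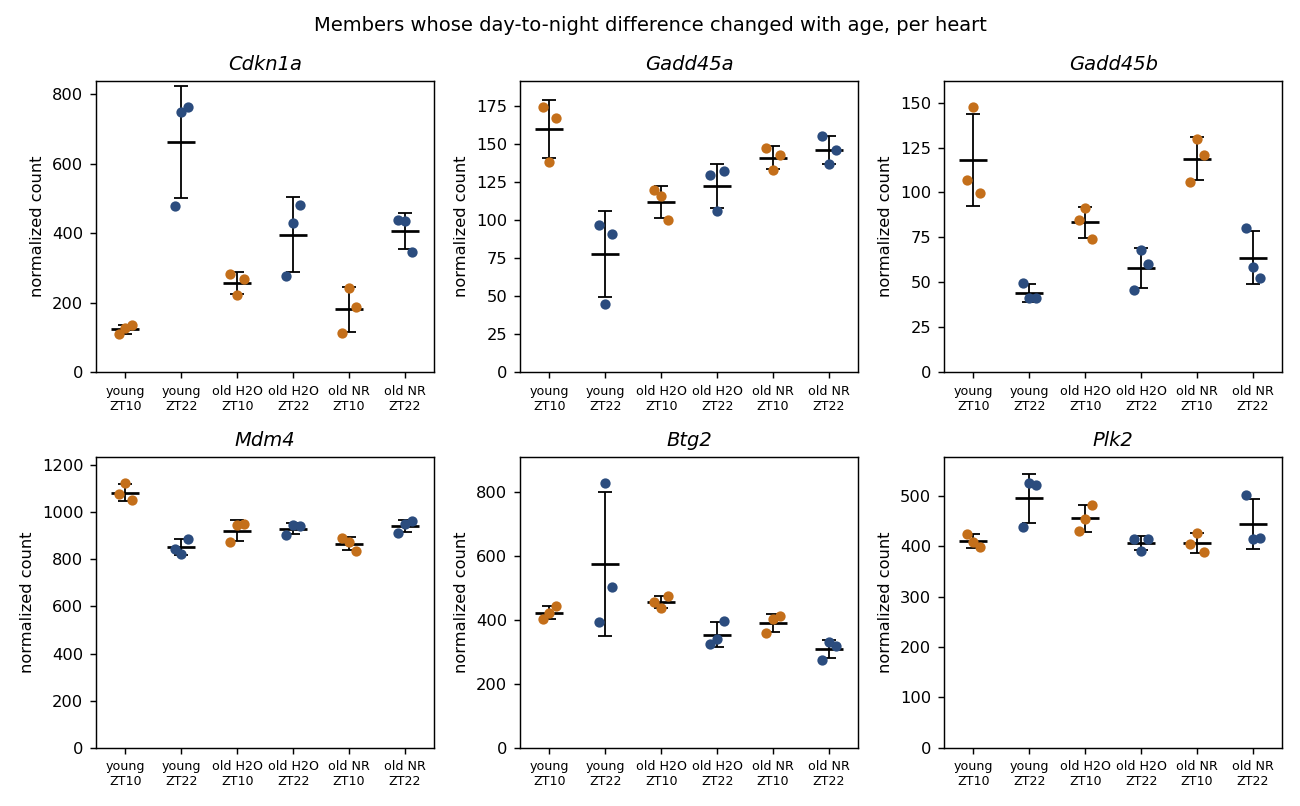
Normalized counts per heart (points; ZT10 in orange, ZT22 in blue), with group mean (line) and SD (bar, n = 3), of the 6 members whose ZT10 to ZT22 difference changed between young and old H2O hearts. Cdkn1a in young hearts runs from 110 to 135 at ZT10 and from 477 to 762 at ZT22. In old H2O hearts only the lowest ZT22 heart (276) lies within the ZT10 range (221 to 283).

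The other members called in young hearts moved less. Mdm4, the inhibitory partner of MDM2 (chromosome 1, 132959484 to 133030561), had 1077, 1123 and 1050 normalized counts at ZT10 and 842, 825 and 888 at ZT22, with no overlap (0.35, SE 0.06, adjusted p = 0.000256), and this call held without any single heart. Sesn1 had 1213, 1318 and 1439 at ZT10 and 925, 832 and 1169 at ZT22 (0.44, SE 0.11, adjusted p = 0.00659). Bbc3, which encodes the pro-apoptotic protein PUMA, had 30.5, 25.4 and 24.6 at ZT10 and 54.7, 46.9 and 39.9 at ZT22 (-0.80, SE 0.24, adjusted p = 0.0287). None of these groups overlapped, with Mdm4 and Sesn1 high by day and Bbc3 high by night. Zmat3, an RNA-binding p53 target, and Plk2, a polo-like kinase, were lower at ZT10 by 0.33 (SE 0.10, adjusted p = 0.027) and 0.27 (SE 0.08, adjusted p = 0.0225) on the log2 scale. These 4 weaker calls depended on single hearts. Without young ZT22 replicate 2, adjusted p was 0.0571 for Sesn1, 0.075 for Bbc3, 0.0681 for Zmat3 and 0.11 for Plk2, which left 4 called members, and without young ZT10 replicate 3 it was 0.0944 for Bbc3, 0.143 for Zmat3 and 0.0851 for Plk2, which left 5. Leaving out young ZT10 replicate 2 ended the calls of Bbc3 (0.0959) and Plk2 (0.0692), young ZT22 replicate 1 those of Bbc3 (0.0927) and Zmat3 (0.118), and young ZT22 replicate 3 that of Plk2 (0.0944). DESeq2 and a fit of only the young hearts did not call Zmat3.

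In old H2O hearts 2 members were called between the times, both higher at ZT10, against 4.2% of all genes. Trp53inp1, a stress-induced p53 cofactor, had 319, 318 and 368 normalized counts at ZT10 and 224, 237 and 273 at ZT22 (0.43, SE 0.12, adjusted p = 0.0448). Sesn1 had 1406, 1271 and 1300 at ZT10 and 1199, 966 and 932 at ZT22 (0.37, SE 0.11, adjusted p = 0.0477). Neither pair of groups overlapped, but each call was lost in 5 of 6 leave-one-out fits, for Trp53inp1 in all but the fit without old H2O ZT22 replicate 3 (adjusted p up to 0.194) and for Sesn1 in all but that without old H2O ZT22 replicate 1 (up to 0.216). No member was called without any 1 of the old H2O hearts at ZT10 or without old H2O ZT22 replicate 2, and 1 without old H2O ZT22 replicate 3. In old NR hearts 2 members were called, Cdkn1a and Gadd45b as given above, against 5.37% of all genes. Sesn1 had 1119, 1068 and 1190 at ZT10 and 1241, 1154 and 1106 at ZT22 in old NR hearts, which overlapped (-0.05, SE 0.10, adjusted p = 0.883).

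The age by time interaction asked whether the ZT10 to ZT22 difference itself changed between young and old H2O hearts. It was called for 6 members, against 6.89% of all genes, and a positive value means that the ZT10 to ZT22 ratio was higher in old hearts. Cdkn1a led (1.76, SE 0.31, adjusted p = 0.00168), as its ratio was nearer to 1 in old hearts, followed by Gadd45a (-1.20, SE 0.25, adjusted p = 0.00512) and Mdm4 (-0.36, SE 0.08, adjusted p = 0.00961). Mdm4 had 872, 946 and 948 normalized counts in old H2O hearts at ZT10 and 904, 947 and 939 at ZT22, which overlapped. Without young ZT22 replicate 2 or without old H2O ZT10 replicate 3, 3 members were called. These 3 calls held without any single heart, young ZT22 replicate 2 included (adjusted p = 0.00527, 0.00662 and 0.0292 without it).

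The remaining 3 interaction calls were less firm. Gadd45b gave -0.94 (SE 0.26, adjusted p = 0.0319), but adjusted p lay above the threshold in 7 of 12 leave-one-out fits (up to 0.1, without young ZT10 replicate 2), those without old H2O ZT10 replicate 1 or 3, old H2O ZT22 replicate 2 or 3, young ZT10 replicate 2, or young ZT22 replicate 2 or 3. Btg2, an antiproliferative immediate early gene, gave 0.81 (SE 0.23, adjusted p = 0.0365). Its values in young hearts at ZT22 were 394, 826 and 502, with replicate 2 far above the others, and 403 to 442 at ZT10. In old H2O hearts Btg2 ran from 436 to 474 at ZT10 and from 323 to 396 at ZT22. The call was lost in 9 of 12 fits, all but those without old H2O ZT22 replicate 3 or young ZT22 replicate 1 or 3, and the value fell to 0.44 (adjusted p = 0.0642) without young ZT22 replicate 2. Plk2 gave 0.44 (SE 0.11, adjusted p = 0.0211), with 398 to 425 in young hearts at ZT10 and 439 to 525 at ZT22, and 429 to 482 and 391 to 415 in old H2O hearts, and was lost in 5 of 12 fits (without old H2O ZT10 replicate 3, old H2O ZT22 replicate 2, young ZT10 replicate 3, or young ZT22 replicate 2 or 3; adjusted p up to 0.0611). Summed levels of the 12 immediate early genes were 205 to 222 at ZT10 and 196 to 308 at ZT22 in young hearts, and 223 to 246 and 165 to 178 in old H2O hearts. Between the times in young hearts 7 of the 12 were called, all lower at ZT10, led by Atf3 (-2.05, adjusted p = 0.00335). The interaction called 6 of the 12, all with positive values, where 14.4% and 6.89% of all genes were called. These counts include young ZT22 replicate 2 and were not refitted without it. Atrial markers stood at 150 to 356 and 121 to 232 in young, and at 297 to 431 and 113 to 272 in old H2O hearts, and proliferation markers, all 4 at low levels, at 2.42 to 5.01 and 4.48 to 6.58 in young, and at 5.15 to 8.46 and 2.67 to 3.04 in old H2O hearts. In the same interaction 3 of the 4 proliferation markers were called, Cdk1, which is also in the list of other pathway genes (2.29, adjusted p = 0.0092), Mki67 (1.69, 0.0039) and Top2a (1.68, 0.0136), so they moved in the direction of Cdkn1a. The part of these 3 lists in these results was not tested.

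**Figure D3:**
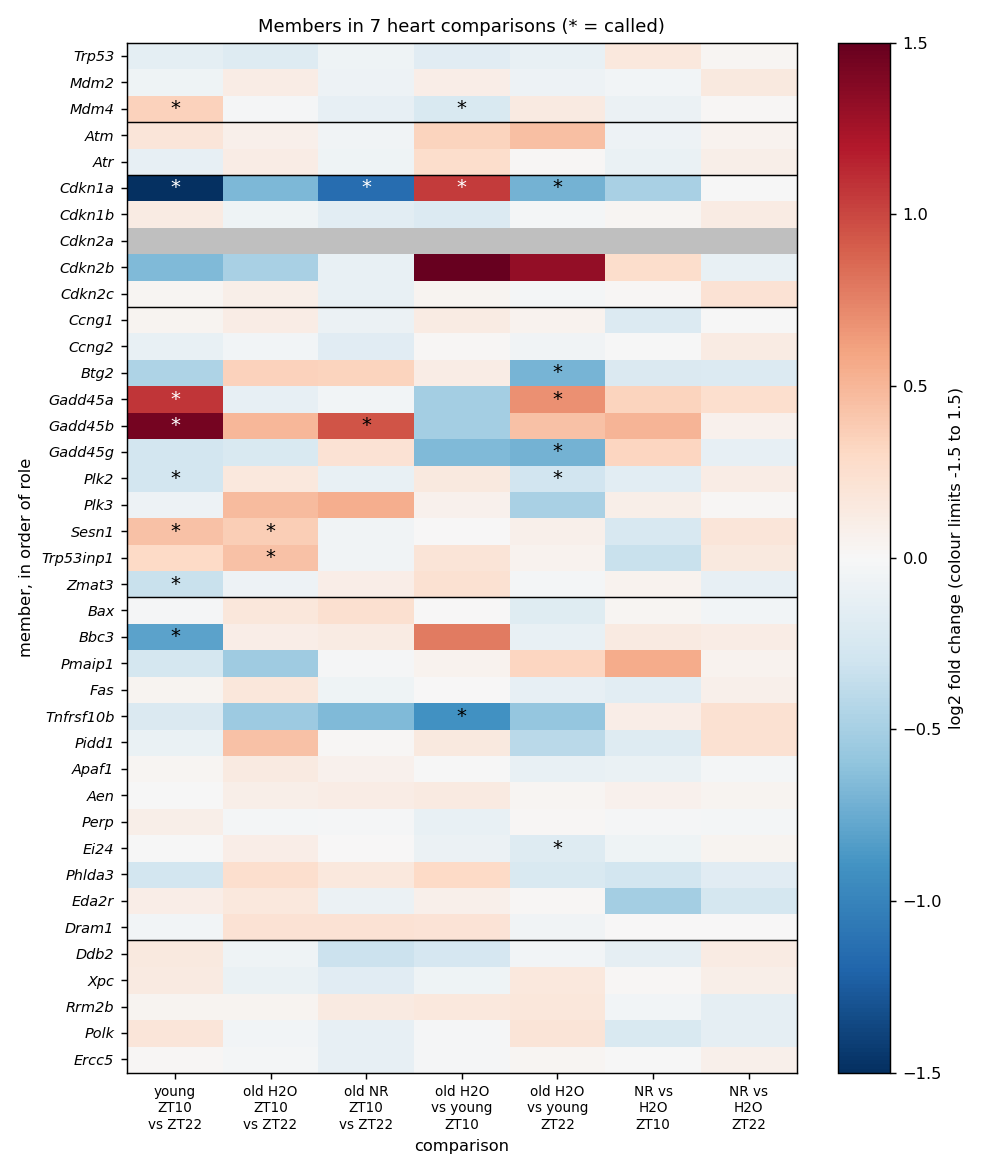
Log2 fold changes of the 39 members (rows, in order of role, with lines between roles) in 7 heart comparisons (columns), with asterisks at calls; grey marks Cdkn2a, which lay under the minimum average count of this fit. Red is higher in the group or time named first, and 8 members were called between the times in young hearts against 2 in old H2O and 2 in old NR hearts, where 14.4%, 4.2% and 5.37% of all genes were called.

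To ask what changed with age, old H2O hearts were compared with young hearts at each time. At ZT10, 3 members were called, 1 higher and 2 lower in old hearts, against 5.87% of all genes. Cdkn1a was 2.07-fold higher (221 to 283 in old and 110 to 135 in young hearts, without overlap, log2 fold change 1.05, SE 0.25, adjusted p = 0.0142). Tnfrsf10b, a TRAIL death receptor, was 1.88-fold lower, with 35.5, 49.8 and 50.1 normalized counts in old and 105, 79.2 and 71.4 in young hearts (-0.91, SE 0.24, adjusted p = 0.0253), and Mdm4 was 1.18-fold lower (-0.23, SE 0.06, adjusted p = 0.0184). None of the 3 overlapped between the ages. The call of Cdkn1a was lost without old H2O ZT10 replicate 1 (adjusted p = 0.0594) or young ZT10 replicate 1 (0.062), and that of Mdm4 without old H2O ZT10 replicate 1 (0.0967) or young ZT10 replicate 2 (0.0872). That of Tnfrsf10b was lost in 5 of 6 fits, all but the one without young ZT10 replicate 3 (up to 0.133). No member was called without old H2O ZT10 replicate 1, and 1 without young ZT10 replicate 2.

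At ZT22, 6 members were called, 1 higher and 5 lower in old hearts, against 14.1% of all genes. Gadd45a was 1.61-fold higher (106 to 132 in old and 45.0 to 96.9 in young hearts, without overlap, 0.69, SE 0.18, adjusted p = 0.014). Cdkn1a was 1.64-fold lower (276 to 482 in old and 477 to 762 in young hearts, -0.71, SE 0.19, adjusted p = 0.0137), the opposite of its direction at ZT10, and its groups overlapped by a single old heart. Btg2 was 1.63-fold lower (-0.70, SE 0.16, adjusted p = 0.0058) and Gadd45g, a Gadd45 family member, 1.64-fold lower (70.8, 121 and 101.5 in old and 152, 230 and 109 in young hearts, -0.71, SE 0.20, adjusted p = 0.0185), both with overlapping groups. Plk2 fell by 0.29 (SE 0.08, adjusted p = 0.0175) and Ei24, a membrane protein of the endoplasmic reticulum, by 0.19 on the log2 scale (SE 0.06, adjusted p = 0.043). Without young ZT22 replicate 2, 2 members were called, Btg2 (-0.33, adjusted p = 0.0445) and Ei24 (-0.23, adjusted p = 0.0437), while adjusted p was 0.0682 for Cdkn1a, 0.0871 for Gadd45a, 0.213 for Gadd45g and 0.0851 for Plk2. Single other hearts also ended calls: young ZT22 replicate 3 those of Cdkn1a (0.0716), Plk2 (0.0759) and Ei24 (0.135), old H2O ZT22 replicate 3 those of Gadd45a (0.0664), Gadd45g (0.0571) and Ei24 (0.208), and each of these left 3 members called. Leaving out old H2O ZT22 replicate 1 ended those of Cdkn1a (0.055), Gadd45g (0.0637) and Ei24 (0.0535), old H2O ZT22 replicate 2 those of Plk2 (0.077) and Ei24 (0.0577), and young ZT22 replicate 1 that of Ei24 (0.105). DESeq2 did not call Cdkn1a (adjusted p = 0.0595) or Ei24, and a fit of only the hearts at ZT22 of these ages kept 1 of the 6 calls, that of Cdkn1a (0.0423), and added Atm. The latter fit called 1168 of 15456 genes, against 2183 of 15443 in the main fit. Summed macrophage marker levels were 121 to 136 in old H2O and 89.4 to 105 in young hearts at ZT22, and endothelial ones 199 to 232 and 236 to 258, and their part in these results was not tested.

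Over both times together, 5 members were called with age, 2 higher and 3 lower in old hearts, against 11.8% of all genes. Tnfrsf10b was lower in old hearts (35.5 to 74.9 over 6 old and 71.4 to 121 over 6 young hearts, -0.74, SE 0.16, adjusted p = 0.00413), and so was Gadd45g (70.8 to 121 and 109 to 230, -0.69, SE 0.14, adjusted p = 0.00326). Both calls held without any single heart, although the groups overlapped. Atm was higher in old hearts (181 to 261 and 145 to 206, 0.39, SE 0.11, adjusted p = 0.0228), a call lost without old H2O ZT10 replicate 3 (0.0718), old H2O ZT22 replicate 2 (0.0647), young ZT10 replicate 3 (0.0627) or young ZT22 replicate 3 (0.0535). Ei24 was 1.1-fold lower (-0.14, SE 0.04, adjusted p = 0.0411), a call lost in 8 of 12 fits, all but those without old H2O ZT22 replicate 1 or 2 or young ZT10 or ZT22 replicate 2 (up to 0.109), and not made by DESeq2. The count was 3 without any 1 of the old H2O hearts at ZT10, old H2O ZT22 replicate 2 or young ZT10 replicate 1, and 2 without young ZT10 or ZT22 replicate 3.

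The 2 genes of the Cdkn2a and Cdkn2b locus on chromosome 4 were both near the limit of detection in hearts. Cdkn2b, which encodes p15INK4b, had 5.70 to 13.4 normalized counts in old H2O hearts and 0 to 7.35 in young hearts (1.41, SE 0.43, adjusted p = 0.0379). This rests on few reads, and the call was lost in 7 of 12 fits, those without old H2O ZT10 replicate 1 or 2, old H2O ZT22 replicate 2, young ZT10 replicate 1 or 3, or young ZT22 replicate 1 or 3 (up to 0.0981), and not made by DESeq2. Cdkn2a (89274471 to 89294653) was read 2, 7 and 4 times in old H2O hearts at ZT10 and 5, 7 and 11 times at ZT22, 1, 1 and 1 times in young hearts at ZT10 and 0 times in all 3 at ZT22. Every old H2O heart thus had more Cdkn2a reads than every young heart, 36 against 3 in all, a ratio of 11.1 after normalization (95% exact interval 3.5 to 56.3, counting error only). With no filter on low counts, edgeR called Cdkn2a with age at ZT22 (adjusted p = 0.000581) and over both times (0.000356) but not at ZT10 (0.154), and DESeq2 called it over both times (0.00122) and gave no adjusted p at either time alone. In old NR hearts Cdkn2a was read 2, 6 and 3 times at ZT10 and 1, 3 and 4 times at ZT22, 19 reads in all, with overlap with old H2O hearts at ZT10 and none at ZT22 in normalized counts (ratio 0.473, interval 0.257 to 0.847, counting error only). With no filter on low counts, edgeR did not call it with NR at ZT10 (adjusted p = 0.843), at ZT22 (0.29) or over both times (0.365). Macrophage markers summed to 111 to 136 in old H2O, 90.3 to 109 in old NR and 89.4 to 110 in young hearts, and their part was not tested. The counts cannot tell the p16INK4a from the p19ARF transcript.

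NR was compared with water in old hearts. No member was called at ZT10, at ZT22 or over both times with edgeR, against 0.285%, 0.35% and 0.337% of all genes, and DESeq2 called 0 in each. At an unadjusted p under 0.05 there were 6, 2 and 5 members, where 10.1%, 11.2% and 10.8% of all genes lay under it. Gadd45b at ZT10 had 106 to 130 normalized counts with NR and 74.1 to 91.2 without (0.51, SE 0.16, adjusted p = 0.247). Eda2r, a p53-induced receptor of the TNF family, had 66.3, 64.8 and 49.6 with NR and 73.2, 95.9 and 87.7 without at ZT10 (-0.51, SE 0.16, adjusted p = 0.213), with no overlap and no call. Trp53inp1 stood at 247 to 287 and 318 to 368 (-0.34, SE 0.12, adjusted p = 0.297). The NR by time interaction was called for no member by edgeR or DESeq2 (3 at an unadjusted p under 0.05), against 0.343% of all genes. In a fit of only the old hearts at ZT10, Gadd45b and Trp53inp1 were called. That fit called 234 of 15354 genes, against 44 of 15443 in the main fit. Fibroblast markers summed to 109 to 127 with NR and 138 to 160 without at ZT10, and atrial markers to 100 to 124 and 297 to 431, and their part was not tested.

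Other genes of the p53 pathway were counted from a list of 50, of which 47 were tested in hearts. Between the times in young hearts 5 were higher and 4 lower at ZT10, led by Thbs1 (-1.62), Ccne1 (1.38) and Trp53i11 (-0.89), and 6 and 2 in all were called in old H2O and old NR hearts, where 14.4%, 4.2% and 5.37% of all genes were called. With age 5 were higher and 2 lower at ZT10 and 4 were higher and 1 lower at ZT22, against 5.87% and 14.1% of all genes called in either direction. Ccnd1, which encodes cyclin D1, was higher at both (0.54, adjusted p = 0.00256, and 0.39, adjusted p = 0.0128). Cdk6, its kinase partner, fell by 0.93 on the log2 scale with age at ZT10 (adjusted p = 3.67e-05). It was the only gene of the list called with NR at ZT10 (0.62, adjusted p = 0.0227), had 357, 426 and 322 normalized counts with NR and 206, 274 and 237 without, and was called in the NR by time interaction (1.12, adjusted p = 0.00562). With NR at ZT10 no gene at all was called without old H2O ZT10 replicate 3 or without old NR ZT10 replicate 1 or 3. The call of Cdk6 was thus lost there with all others, which is not particular to Cdk6, and its own fold change in those fits was not examined. Its values with age at ZT10, with NR at ZT10 and in the interaction share the old H2O ZT10 hearts, so they are not independent. Of 21 senescence and secretory genes, 18 were tested. With age over both times 4 were higher and 0 lower, led by Mmp3, a matrix protease (1.06, adjusted p = 0.00239), Igfbp5 (0.24, adjusted p = 0.00745) and Igfbp4 (0.22, adjusted p = 0.00589), against 11.8% of all genes called in either direction. At ZT10 2 were higher and 0 lower with age, and at ZT22 4 were higher and 1 lower, the lower one being Il1b, an inflammatory cytokine (-1.59, adjusted p = 0.0124). Between the times in young hearts 1 was higher and 4 lower at ZT10, led by Il1b (-2.77, adjusted p = 0.000639), Mmp3 (-1.78, adjusted p = 0.000916) and Gdf15, a stress-induced cytokine (-1.47, adjusted p = 0.0396). In old H2O hearts edgeR called 0 between the times (5 at an unadjusted p under 0.05), and in old NR hearts 1 was higher and 1 lower. In the age by time interaction 3 were called, Il1b (2.86, adjusted p = 0.0219), Gdf15 (2.44, adjusted p = 0.0201) and Plaur, the urokinase receptor (1.42, adjusted p = 0.0493), against 6.89% of all genes. Il1b was at 2.46 to 4.06 normalized counts in young hearts at ZT10 and at 9.94, 28.5 and 29.7 at ZT22, so these values rest on few reads. The results of both lists that use young hearts at ZT22 include replicate 2 and were not refitted without it. Lmnb1, whose loss marks senescent cells and which was picked after its values were seen, had 83.2 to 114 in old H2O and 75.2 to 108 in young hearts. With NR 1 of the 18 was called over both times, Igfbp4, which was lower (-0.23, adjusted p = 0.0454).

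In HL-1 cells NAD+ depletion by FK866 was compared with untreated cells, and NR and Ex527 were then added. All 39 members passed filterByExpr among 14760 genes, and calls needed an adjusted p under 0.01 with a fold over 1.5. With FK866, 5 members were called, 1 higher and 4 lower, against 4.59% of all genes, and Sesn1, Ccng2, Cdkn2a and Cdkn2b fell while Gadd45b rose. At an adjusted p under 0.05 with no minimum fold, 18 members were called (7 higher and 11 lower), against 24.8% of all genes. The median log2 fold change was -0.08 over the members and 0.02 over all genes.

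Sesn1 (chromosome 10, 41809935 to 41908424) had 3676, 4087 and 3946 normalized counts in untreated cells and 2097, 1812 and 1706 with FK866, a 2.09-fold fall without overlap (-1.06, SE 0.07, adjusted p = 2.57e-07). With FK866 plus NR it stood at 3375, 3650 and 3554, 1.88-fold above FK866 alone (0.91, SE 0.07, adjusted p = 1.04e-06). With Ex527 added it stood at 2408, 2489 and 2414, between FK866 alone and FK866 plus NR with overlap with neither. That was 1.6-fold below untreated cells (-0.68, SE 0.07, adjusted p = 7.41e-05) and 1.45-fold below FK866 plus NR (-0.53, SE 0.07, adjusted p = 0.000625, under the minimum fold).

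Ccng2, a cyclin that is induced by FOXO factors and restrains proliferation (chromosome 5, 93267257 to 93276231), moved in the same way. It had 706, 701 and 803 normalized counts in untreated cells, 423, 404 and 366 with FK866, 721, 749 and 722 with FK866 plus NR, and 488, 524 and 459 with Ex527 added. Untreated cells and FK866 plus NR overlapped, and the other 2 treatments lay below them and apart from each other. The log2 fold changes were -0.89 with FK866 (SE 0.08, adjusted p = 3.1e-06), 0.88 with NR added to FK866 (SE 0.08, adjusted p = 4.1e-06), -0.58 with Ex527 added to FK866 plus NR (SE 0.08, adjusted p = 0.000783, under the minimum fold) and -0.59 with all 3 agents against untreated cells (SE 0.08, adjusted p = 0.000496). The last call was lost without untreated replicate 3 (-0.52) or without replicate 3 of the cells with all 3 agents (-0.55), as the fold fell under 1.5.

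Gadd45b moved the other way, with 110, 105 and 131 normalized counts in untreated cells, 229, 261 and 217 with FK866, 92.4, 84.8 and 111 with FK866 plus NR, and 139, 157 and 155 with Ex527 added. FK866 cells lay above all others, and untreated cells overlapped with FK866 plus NR. It was 2.05-fold higher with FK866 (1.03, SE 0.14, adjusted p = 7.13e-05) and 2.44-fold lower again with NR (-1.29, SE 0.14, adjusted p = 1.38e-05), and both calls held without any single culture. With all 3 agents it was 1.56-fold below FK866 (-0.64, SE 0.13, adjusted p = 0.00564), the only member called there, against 1.27% of all genes. That call was lost in 5 of 6 fits, all but the one without FK866 replicate 3, where Mdm4, Bax and Gadd45b were called (adjusted p up to 0.0344). No member was called without FK866 replicate 1 or 2 or without replicate 1 or 2 of the cells with all 3 agents. Immediate early genes summed to 71.5 to 75.6 in untreated cells, 79.4 to 86.0 with FK866, 69.2 to 76.8 with NR and 74.3 to 88.4 with Ex527 added. Of the 11 tested, 3 were called with FK866, all higher (Atf3 1.695, Nr4a3 1.625 and Egr1 0.76), against 4.59% of all genes. With NR added to FK866 2 were called, both lower (Atf3 -1.83 and Dusp1 -0.68), against 4.81%. The part of these genes was not tested. Gadd45a had 413, 465 and 437 in untreated cells, 635, 665 and 573 with FK866, 419, 384 and 337 with FK866 plus NR and 519, 443 and 513 with Ex527 added. It was 1.42-fold higher with FK866 (0.51, SE 0.10, adjusted p = 0.0014, under the minimum fold) and 1.65-fold lower with NR (-0.72, SE 0.10, adjusted p = 9.56e-05).

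**Figure D4:**
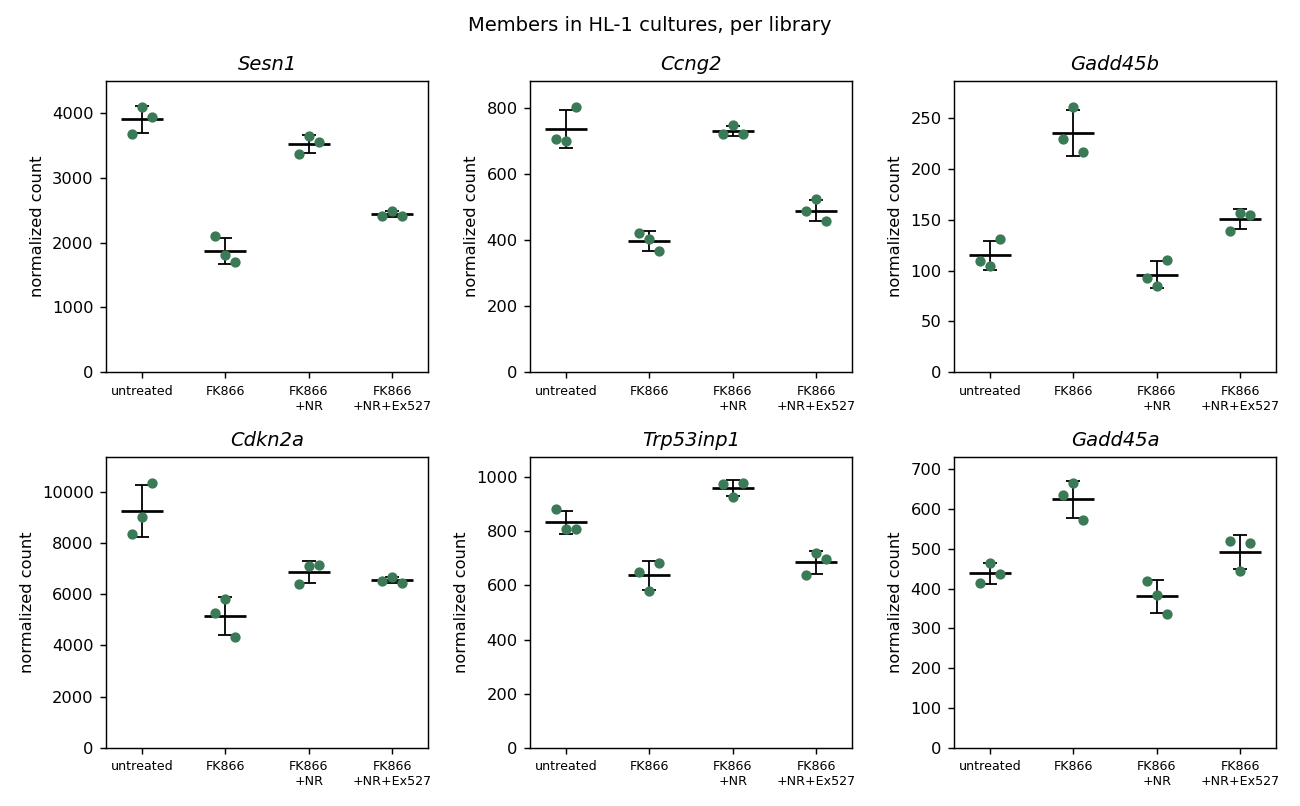
Normalized counts per HL-1 culture (points), with mean (line) and SD (bar, n = 3), of 6 members in untreated cells and with FK866, FK866 plus NR, and FK866 plus NR plus Ex527. Sesn1 falls from 3676 to 4087 in untreated cells to 1706 to 2097 with FK866, stands at 3375 to 3650 with NR added, and at 2408 to 2489 with Ex527 added.

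Cdkn2a and Cdkn2b, which encode inhibitors of the Ink4 family, fell with FK866. Cdkn2a had 8379, 9045 and 10350 normalized counts in untreated cells and 5288, 5819 and 4349 with FK866 (-0.85, SE 0.10, adjusted p = 1.85e-05), without overlap. With NR it stood at 6390, 7101 and 7162 (0.42 above FK866, SE 0.10, adjusted p = 0.00465, under the minimum fold), still below every untreated culture (-0.43, SE 0.10, adjusted p = 0.0115). Cdkn2b, its neighbour on chromosome 4 (89306299 to 89311039), had 1035, 1183 and 1218 in untreated cells, 752, 792 and 650 with FK866 (-0.65, SE 0.08, adjusted p = 5.75e-05), and 964 to 1042 with NR. The call was lost without FK866 replicate 3, as the fold fell under 1.5 (-0.56, adjusted p = 0.000287). Cdkn2c, which encodes p18INK4c, gave -0.41 (SE 0.06, adjusted p = 0.000313) and Cdkn1a -0.21 on the log2 scale (SE 0.06, adjusted p = 0.0254), both under the minimum fold and not called. Cdkn1a had 1099 to 1198 in untreated cells and 946 to 1020 with FK866, without overlap. Fibroblast markers had summed levels of 427 to 466 in untreated cells, 293 to 308 with FK866, 424 to 428 with NR and 381 to 394 with Ex527 added. Col3a1 had the highest level of them, and the 5 genes did not all move alike. In the same order Dcn stood at 27.1 to 31.4, 23.3 to 26.7, 24.5 to 26.0 and 16.7 to 18.2. Col1a1 stood at 91.5 to 103, 71.0 to 75.7, 88.5 to 92.9 and 105 to 116. Proliferation markers stood at 202 to 230, 200 to 223, 243 to 249 and 232 to 241. The part of both lists was not tested.

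NR added to FK866 gave 8 called members, 5 higher and 3 lower, against 4.81% of all genes, and 18 at an adjusted p under 0.05 with no minimum fold, against 28.9%. Besides Sesn1, Ccng2, Gadd45b and Gadd45a these were Bax, Trp53inp1, Mdm4 and Eda2r. Bax, a pore-forming protein of apoptosis, had 940, 952 and 683 normalized counts with FK866 and 511, 608 and 442 with NR (-0.72, SE 0.14, adjusted p = 0.00125), without overlap, and the call held without any single culture. Trp53inp1 had 650, 579 and 682 with FK866 and 974, 926 and 978 with NR (0.59, SE 0.08, adjusted p = 6.94e-05), and stood at 639, 720 and 697 with Ex527 added (-0.48, SE 0.08, adjusted p = 0.00177, under the minimum fold). Mdm4 had 2217, 1832 and 2586 with FK866 and 3518, 3280 and 3222 with NR (0.59, SE 0.12, adjusted p = 0.00156), and Eda2r 143, 114 and 122 and 220, 178 and 176 (0.59, SE 0.15, adjusted p = 0.00879). All 3 lay just over the fold of 1.5. The call of Trp53inp1 was lost without FK866 replicate 2 (0.54), FK866 plus NR replicate 1 (0.58) or FK866 plus NR replicate 3 (0.58), that of Mdm4 without FK866 replicate 2 (0.48) or FK866 plus NR replicate 1 (0.56), and that of Eda2r in all 6 fits (adjusted p up to 0.0454). Without FK866 replicate 2 or FK866 plus NR replicate 1, 5 members were called.

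**Figure D5:**
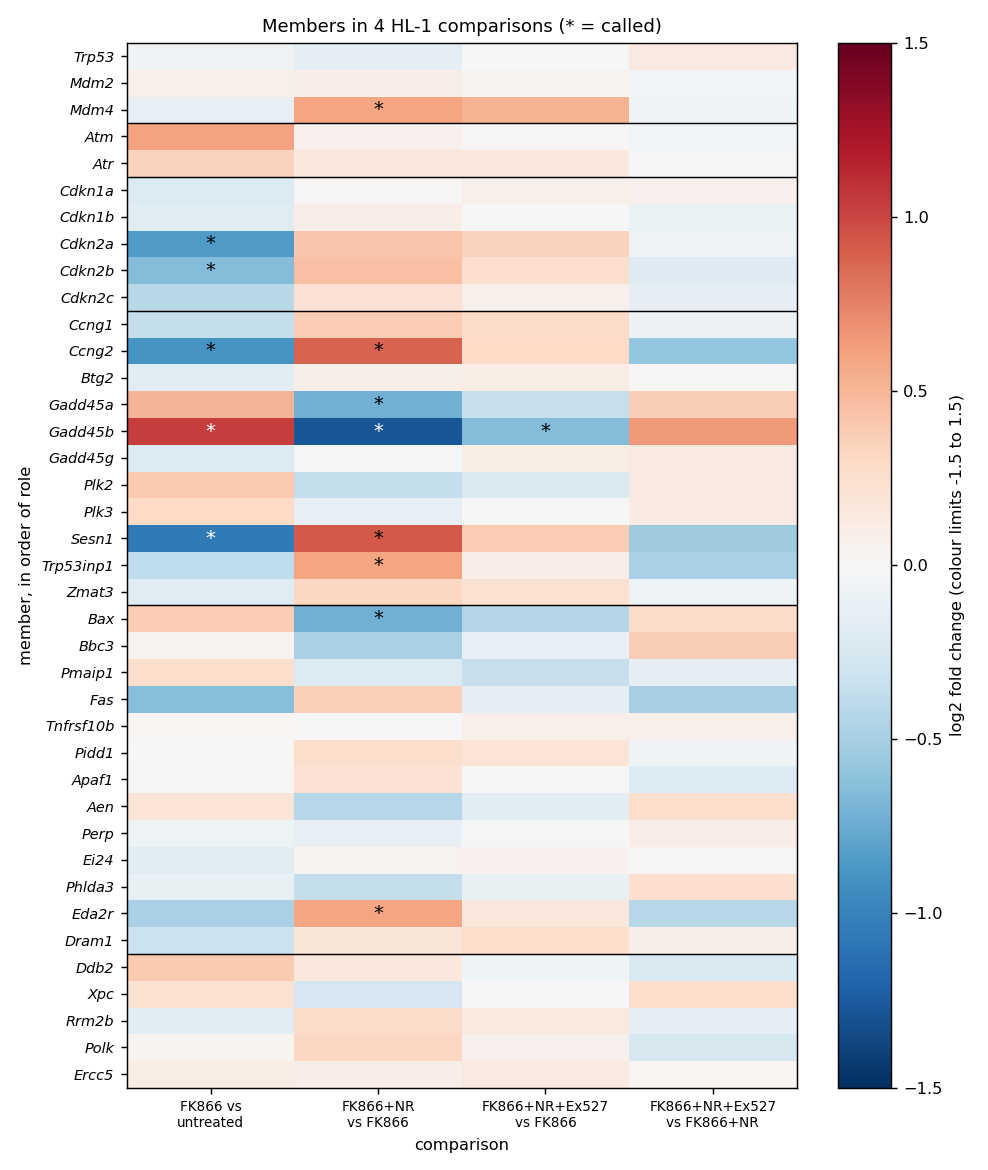
Log2 fold changes of the 39 members (rows, in order of role) in 4 HL-1 comparisons (columns), with asterisks at calls (adjusted p under 0.01 and fold over 1.5). The first 2 columns have 5 and 8 calls, the third has 1 and the fourth has 0, where 4.59%, 4.81%, 1.27% and 0.596% of all genes were called.

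Cells with all 3 agents were compared with FK866 plus NR to ask what adding Ex527 changed. No cultures were given Ex527 without NR. An effect of Ex527 by itself thus cannot be told apart from a changed response to NR. No member was called by edgeR, against 0.596% of all genes, while 14 lay under an unadjusted p of 0.05 (23.2% of all genes) and DESeq2 called 1, Gadd45b. At an adjusted p under 0.05 with no minimum fold, 6 were called, 3 higher and 3 lower, against 7.17% of all genes. Sesn1, Ccng2 and Trp53inp1 were lower, as given above, and Gadd45b (0.64, SE 0.14, adjusted p = 0.0138), Gadd45a (0.37, SE 0.10, adjusted p = 0.0333) and Aen, an apoptosis-enhancing nuclease (0.27, SE 0.07, adjusted p = 0.0294), were higher. The same FK866 plus NR cultures entered the comparison with FK866 alone, so the directions in both are not independent. Without replicate 2 of the cells with all 3 agents, Ccng2 was called. With all 3 agents against FK866, 9 were called with no minimum fold, against 12.2%. FK866 plus NR gave no call against untreated cells by edgeR or DESeq2, against 0.901% of all genes (19 members at an unadjusted p under 0.05, where 39.3% of all genes lay), and 13 with no minimum fold, against 23.9%. With all 3 agents against untreated cells 2 were called, Sesn1 and Ccng2, against 1.42% of all genes, and 13 with no minimum fold, against 16.3%. Without untreated replicate 1 these counts were 2 (Atm and Atr) and 4 (Sesn1, Ccng2, Atm and Atr), and without untreated replicate 3 or replicate 3 of the cells with all 3 agents the latter was 1. For FK866 plus NR against untreated, the calls over all genes rose from 133 to 427 without untreated replicate 1. Without any other single culture 0 of all genes were called there, so the lack of member calls in those fits is not particular to the members.

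The remaining members in HL-1 cells moved little or unevenly. Trp53 stood at 3158 to 4328 and Mdm2 at 3311 to 3921 over all 12 cultures, and neither was called in any comparison under the main rule. Plk2 and Plk3, polo-like kinases, were higher with FK866 by 0.39 (adjusted p = 0.000633) and 0.30 (adjusted p = 0.00885), and Ccng1 was lower by 0.35 on the log2 scale (adjusted p = 0.000932), all under the minimum fold. Atm ran from 861 to 1486 in untreated cells and from 1222 to 2329 with FK866, which overlapped (0.60, SE 0.19, adjusted p = 0.0327). Untreated replicate 3 was the lowest of the 12 cultures for Atm, Atr and Plk2 alike. None of the 5 repair and nucleotide genes was called under the main rules in any comparison of hearts or HL-1 cells.

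Of the 50 other pathway genes 45 were tested in HL-1 cells, and 0 or 1 was called in each comparison, where 0.596% to 4.81% of all genes were called. Sesn3 followed Sesn1, with 1385, 1342 and 1240 normalized counts in untreated cells, 837, 681 and 1051 with FK866 (-0.62, adjusted p = 0.00156) and 1589, 1330 and 1628 with NR (0.82, adjusted p = 0.000172). Sesn2, the third sestrin and a target of ATF4, was highest with Ex527 (1248, 1414 and 1507, against 855 to 909 with FK866 plus NR; 0.64, adjusted p = 0.000267). Of 21 senescence and secretory genes 14 were tested. Igfbp4 was lower with FK866 (498, 507 and 493 in untreated and 232, 280 and 255 in FK866 cells, -0.97, adjusted p = 2.1e-06), and Igfbp7 was lower with NR than with FK866 alone (-0.74, adjusted p = 0.0016). No other gene of that list was called by edgeR in HL-1 cells, where 4 to 7 of the 14 lay under an unadjusted p of 0.05 in each comparison.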

How the data were processed

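The members and lists were chosen with earlier results of these data known. For the hearts the authors deposited counts per gene, made per the labels (submitters' processing notes) with Trimmomatic 0.39, STAR 2.7.10a (mm10), Picard 3.0.0 and featureCounts 2.0.4, and a score that was derived by dividing those counts by size factors and rounding. The tables' names are swapped, and the table used as counts is the one whose library totals and size factors vary (size factors 0.680 to 1.445, against 1.005 to 1.008). The score table gave gene symbols only. For HL-1 cells the authors deposited counts (HISAT2, mm10 per the labels) and FPKM values, which were not used. The authors removed duplicate, multi-mapping, ribosomal and mitochondrial reads and reads over several genes from the hearts, which lowers counts of overlapping genes.

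Counts were tested with edgeR 4.0.16 (limma 3.58.1, R 4.3.3), using TMM and the two-sided quasi-likelihood F-test, on all 18 hearts or all 12 HL-1 cultures, 1 mean per group, with Benjamini-Hochberg adjustment over all genes tested. Hearts needed an average count over 5 and an adjusted p under 0.05. HL-1 cells needed filterByExpr, an adjusted p under 0.01 and a fold over 1.5. The tool was tested on simulated counts. Normalized counts are TMM-scaled. Whether groups overlapped was noted for members only, with no share over all genes, so it describes the values and is no added test. Levels per length use the lengths in the HL-1 table. Every member called in any comparison is described. The other members are shown in the figures, and only some of their values are given in the text. Of the other lists at most 3 called genes with the largest change per comparison are named, Lmnb1 being an exception. Each library is 1 mouse or 1 culture, so p-values measure the spread between these. Replicates differed beyond sampling noise in a chi-square test (least for old NR ZT10 replicates 1 and 3, 1.07 per gene, p = 4.31e-08), and each was counted. Alternatives were DESeq2 1.42.0, its size factors, other filters and call rules, only the groups compared, a replicate block and leaving out each library. Promoter letters came from RefSeq windows.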

Additional observations from a re-analysis of the deposited data

Results flagged for a closer look

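The ZT10 to ZT22 difference differed between young and old H2O hearts for 6 members, by the interaction term of edgeR's fit, which called 6.89% of all genes. On the log2 scale the change was 1.76 for Cdkn1a (adjusted p = 0.00168), 0.81 for Btg2 (0.0365) and 0.44 for Plk2 (0.0211), whose ratio of ZT10 to ZT22 was higher in old hearts, and -1.20 for Gadd45a (0.00512), -0.94 for Gadd45b (0.0319) and -0.36 for Mdm4 (0.00961), whose ratio was lower. For Cdkn1a, Gadd45a and Mdm4 the call held without any single heart, and for Btg2, Gadd45b and Plk2 it did not. Single outlying samples were not tested in groups of 3 libraries.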

How the results depend on the processing

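None of the 48 calls of members changed direction under the alternatives run, and the other gene lists were not refitted. Of 354 fits that left out 1 library, counted over the 48 calls of members, 248 kept the call. The counts of called members then ran from 4 to 9 for time in young, 0 to 2 in old H2O and 2 to 3 in old NR hearts, 0 to 3, 2 to 6 and 2 to 6 for age at ZT10, at ZT22 and over both, 3 to 6 for the age by time interaction, and 0 to 0 for NR and its interaction. In HL-1 cells they ran from 4 to 6 (FK866), 5 to 7 (NR added), 0 to 3 (all 3 agents against FK866), 0 to 1 (against FK866 plus NR), 0 to 2 (FK866 plus NR against untreated) and 1 to 4 (all 3 agents against untreated). The calls over all genes moved too. For time in young hearts these fits called 1484 to 2108 genes, against 2219 in the main fit. For FK866 plus NR against untreated they called 427 genes without untreated replicate 1 and 0 without any other culture, against 133. With DESeq2 43 of the 48 calls were kept, and Gadd45b was called with Ex527 (1 member), where 129 of all genes were called. With a fold over 1.5 required in hearts the counts were 4 for time in young hearts, 0 in old H2O hearts and 3 for age over both times. Over all genes that rule called 758, 239 and 531. Fits of only the groups compared gave 4 for time in old H2O hearts, 7 and 2 for age at ZT10 and ZT22, and 2 for NR at ZT10. Over all genes these fits called 569, 1479, 1168 and 234, against 649, 906, 2183 and 44 in the main fit. DESeq2 size factors gave 1 for time in old H2O hearts, where 634 of all genes were called. With no minimum fold HL-1 counts were 18, 18, 9, 6, 13 and 13 in the order above. With no filter on low counts they were 1 with Ex527, 1 for FK866 plus NR against untreated and 4 for all 3 agents, and a minimum average count of 5 gave 5 with NR added. Over all genes these fits called 488, 764, 375 and 675. The cause of these shifts was not tested. A replicate block gave 6 for age at ZT10, 0 for all 3 agents against FK866 and 3 for time in old H2O hearts, where it added Cdkn1a (-0.64, adjusted p = 0.04), and kept 46 of 48 calls. Over all genes the block fit called 1023, 165 and 762 in these comparisons. Deviations of libraries with the same number correlated at 0.03 on average in hearts (other numbers -0.01) and passed 0.1 in 5 of 45 pairs, and in 3 of 18 in HL-1 cells. As not every pair passed 0.1, the numbers were not taken to pair the libraries, although 10 of 18 and 7 of 12 libraries correlated best with their own number. Depth limits Cdkn2a, Cdkn2b, Pmaip1 and Pidd1 in hearts.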
